A study of Mus musculus with 14 samples.

Results

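To describe genes that mark spermatogonia on their way into differentiation, the raw counts of 9 genes were followed through polyadenylated RNA of sorted mouse germ cells. The genes were Kit, Sohlh1, Sohlh2, Dmrt1, Dmrtb1, Uchl1, Neurog3, Upp1 and Ccnd2. They were taken by name from the gene column of both deposited count tables, where all 9 were found among 32667 gene rows for spermatogonia (Spg) and 36888 for spermatocytes (Spc). All 9 passed the filter on low counts in every comparison. The study asked what happens in germ cells without DNMT3C, the DNA methyltransferase that methylates promoters of young retrotransposons in the fetal male germline. Its 14 libraries fell into 4 groups: 3 of Dnmt3CKO/KO (KO) and 3 of wild-type (WT) Spg, and 4 of KO and 4 of WT Spc.

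Spg were sorted from mice aged 14 days as Ep-CAM-positive and β-2-Microglobulin-negative cells, and Spc from mice older than 20 days by Hoechst staining of DNA content. All mice were on a C57Bl6/J background, and the labels name no treatment. The labels do not say whether a library holds 1 animal or several, so the p-values measure the spread between these libraries. Age and sort differ together with stage, so the Spg and Spc groups differ in more than stage. Depth ran from 40555726 to 53323651 counts per library. Levels are given as CPM, each count divided by the scaled size of its library. Dnmt3c itself was low in all groups, at 1.4 ± 0.52 CPM (mean ± SD, n = 3) in KO Spg and 1.27 ± 0.29 (n = 3) in WT Spg. In Spc it stood at 1.07 ± 0.08 (n = 4) in KO and 0.63 ± 0.28 (n = 4) in WT, higher in every KO than in every WT library but not called (edgeR adjusted p = 0.124). Dnmt3c RNA therefore gives no check of the genotype labels.

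In the testis, undifferentiated spermatogonia renew themselves or start to differentiate when retinoic acid reaches them, and differentiating cells divide several times before they enter meiosis as spermatocytes. KIT, a receptor tyrosine kinase, appears on the surface at the start of differentiation and carries the signal of its ligand, KITL, which comes from Sertoli cells. SOHLH1 and SOHLH2 are basic helix-loop-helix transcription factors that bind each other and act in this step. DMRT1 and DMRTB1 (also DMRT6) share the DM DNA-binding domain, DMRT1 being known for holding back meiotic entry and DMRTB1 for the passage from the mitotic to the meiotic programme. NEUROG3 is a transcription factor of progenitors about to differentiate, UCHL1 a ubiquitin hydrolase that marks spermatogonia, UPP1 a uridine phosphorylase and CCND2 a D-type cyclin of the G1 phase.

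Positions are those of GENCODE M21 on GRCm38, the build of the files. Kit lies on chr5:75574916-75656722 (plus strand) and Uchl1 on the same chromosome at chr5:66676091-66687234 (plus). Sohlh1 lies on chr2:25842995-25847248 (minus) and Sohlh2 on chr3:55182028-55209957 (plus). Dmrt1 is at chr19:25505618-25604329 (plus) and Dmrtb1 at chr4:107676290-107684230 (minus). Neurog3 occupies chr10:62133090-62134763 (plus), Upp1 chr11:9118103-9136170 (plus) and Ccnd2 chr6:127125162-127152193 (minus). All are protein-coding, and no gene on the same strand overlaps any of them. Antisense genes overlap Uchl1 (Uchl1os), Neurog3 (Fam241b) and Ccnd2 (Gm43126 and 9330179D12Rik), and the authors counted reads by strand.

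RefSeq promoter windows of GRCm38.p6, from 250 bases before to 50 after a start site, were matched for 7 of the 9 genes (11 windows), and none was matched for Dmrt1 and Ccnd2. The stretches before the annotated starts of 3 genes are shown: Kit and Sohlh1, whose levels moved together, and Dmrtb1, which moved the other way in Spc. Capitals mark the E-box CANNTG, the element that basic helix-loop-helix factors bind, which reads the same on both strands.
Kit, chr5:75574737-75574915, plus strand: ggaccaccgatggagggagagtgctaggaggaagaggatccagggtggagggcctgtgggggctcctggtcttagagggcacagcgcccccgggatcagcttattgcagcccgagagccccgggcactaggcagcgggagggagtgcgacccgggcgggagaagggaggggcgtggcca
Sohlh1, chr2:25847249-25847498, minus strand: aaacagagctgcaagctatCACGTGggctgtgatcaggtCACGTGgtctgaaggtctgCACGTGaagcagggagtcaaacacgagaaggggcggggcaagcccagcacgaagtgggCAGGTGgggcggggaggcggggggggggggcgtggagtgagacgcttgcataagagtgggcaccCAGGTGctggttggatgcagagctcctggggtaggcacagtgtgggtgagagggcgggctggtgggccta
Dmrtb1, chr4:107684231-107684480, minus strand: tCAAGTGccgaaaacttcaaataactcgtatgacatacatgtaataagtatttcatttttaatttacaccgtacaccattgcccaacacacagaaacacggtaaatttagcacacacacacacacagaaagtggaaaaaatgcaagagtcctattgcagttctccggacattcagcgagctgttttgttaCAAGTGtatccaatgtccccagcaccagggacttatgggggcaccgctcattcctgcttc
The stretch shown of Sohlh1 held 5 E-boxes, that of Dmrtb1 2 and that of Kit, which has 179 bases against 250 for the others, 0. In the full windows, the single one of Sohlh1 held 5 E-boxes, both of Dmrtb1 3 each and both of Kit, which overlap, 1 each. Of the 5 in Sohlh1, 3 read CACGTG, a form that was singled out after the sequence was seen. Over all 32851 full RefSeq windows, 72.3% held an E-box and 7.15% held CACGTG. The GC box GGGCGG, searched on both strands, was found 3 times in the Sohlh1 stretch, 1 time in that of Kit and 0 times in that of Dmrtb1, whose other window held 1. It occurred in 35.7% of all windows. TATAAA, searched on both strands, occurred in 0 of the 11 windows of the 7 genes and in 13.6% of all windows. G and C made up 69.3% of the Kit stretch, 64.4% of that of Sohlh1 and 42.4% of that of Dmrtb1. These matches describe the letters of the windows and were not related to binding.

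The levels in Spg were compared per length, as CPM per kilobase of exon sequence. In WT Spg, Uchl1 was the highest at 216 ± 46.8 (SD, n = 3) CPM per kilobase, followed by Dmrt1 at 156 ± 33.9 and Dmrtb1 at 85.9 ± 31.7. Sohlh1 came next at 42.3 ± 4.24, then Sohlh2 at 38.0 ± 3.64 and Kit at 33.6 ± 7.56. Ccnd2 stood at 8.04 ± 3.78, Upp1 at 1.48 ± 0.53 and Neurog3 at 1.47 ± 0.63 CPM per kilobase. The libraries of Uchl1 and Dmrt1 overlapped, as did those of Sohlh1 and Sohlh2, of Sohlh2 and Kit, and of Upp1 and Neurog3, while the other neighbours in this order did not. KO Spg gave the same order, with further overlaps between Dmrtb1 and Sohlh1 and between Ccnd2 and Upp1. Divided by the longest transcript in place of all exons, Kit ranked the fourth rather than the sixth in both. WT Spc had another order, with Dmrtb1 at 565 ± 307 (SD, n = 4) CPM per kilobase above Uchl1 at 28.2 ± 22.1 and Dmrt1 at 12.2 ± 11.6, and with the libraries of Dmrtb1 and Uchl1 not overlapping. In KO Spc the order was that of Spg for the 7 highest genes, from Uchl1 at 147 ± 74.4 to Ccnd2 at 9.15 ± 6.38, with Neurog3 at 1.04 ± 0.46 before Upp1 at 0.54 ± 0.13, and Ccnd2 and Neurog3 were its only neighbours without overlap.

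**Figure D1:**
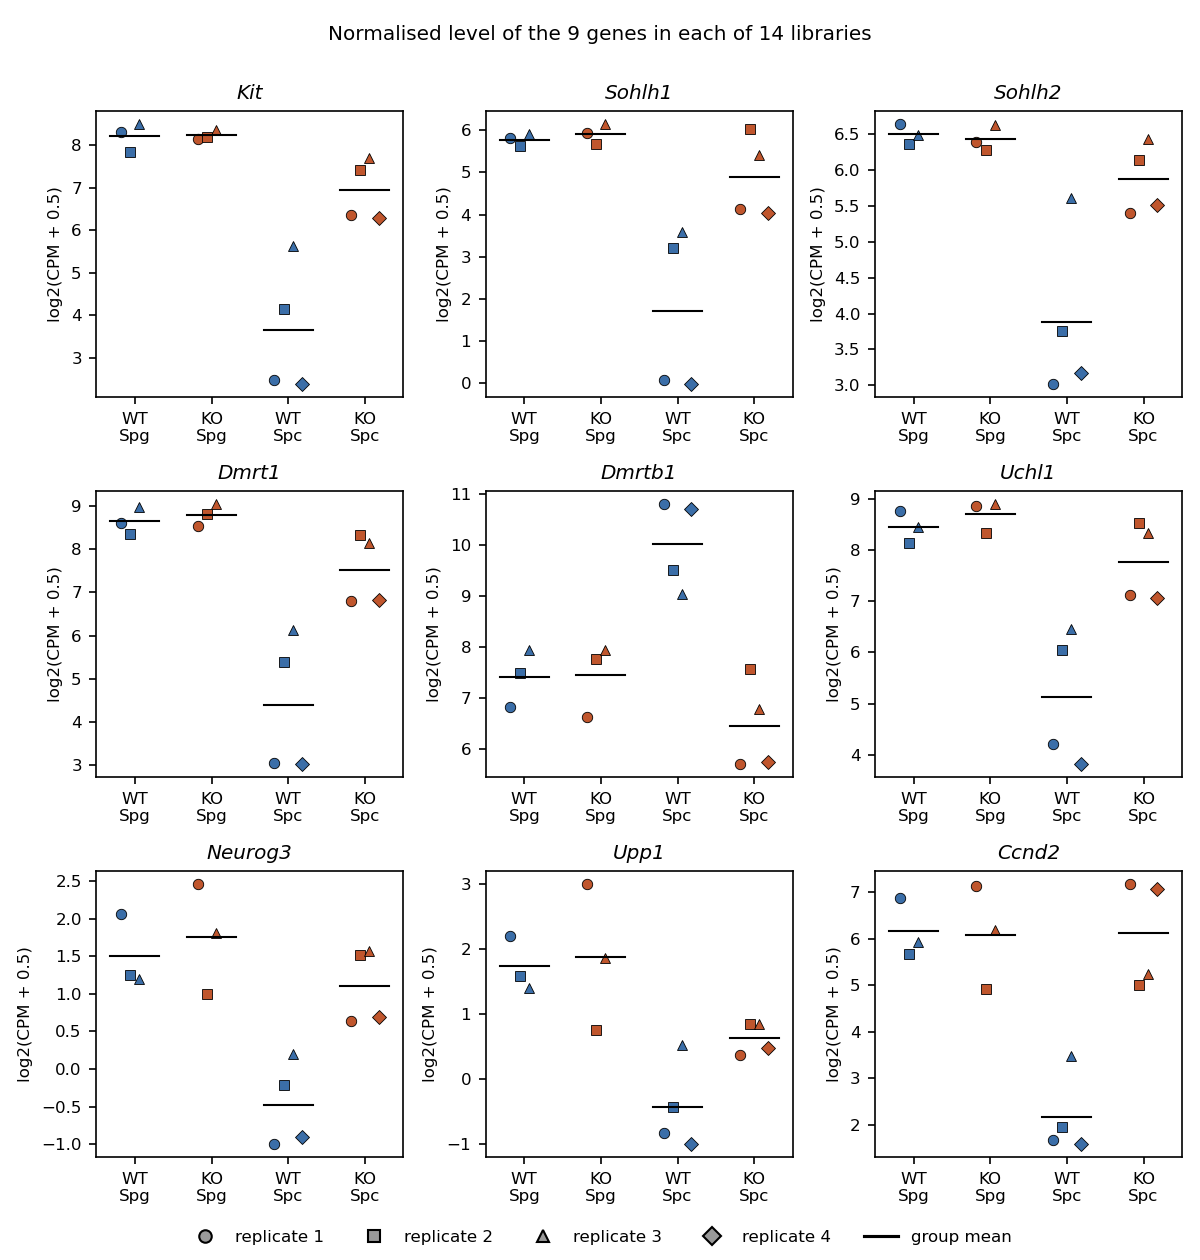
Normalised level of each of the 9 genes as log2(CPM + 0.5) (y axis) in WT (blue) and KO (orange) spermatogonia (Spg) and spermatocytes (Spc), with 1 symbol per library, shaped by replicate number, and a line at the mean of the log2 values. In 8 of the 9 genes WT Spc has the lowest mean, and in Dmrtb1 the highest.

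The first comparison asked whether the genes differed between KO and WT in spermatogonia. They did not pass the test: 0 of 9 were called, beside 0.0741% (16) of 21580 genes and transposable element (TE) subfamilies, at an edgeR adjusted p under 0.01. Features called higher made up 0.0695% and those called lower 0.00463%. With DESeq2, 0 of the 9 were called as well. With the replicate number as a block, 177 of all features and still 0 of the 9 genes were called. The libraries of KO and WT overlapped in 9 of 9 genes, while 12.1% of all features showed no overlap. The smallest unadjusted p of the 9 was 0.32 (edgeR, for Uchl1). Kit was at 281, 292 and 324 CPM in KO Spg (replicates 1 to 3) and at 314, 226 and 358 in WT Spg. Its fold change, KO over WT, was 0.98, with a 95% interval of 0.75 to 1.28. Of the 9 genes, Kit, Sohlh1 and Sohlh2 had the narrowest intervals.

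Sohlh1 read 60.4, 50.9 and 70.2 CPM in KO Spg and 55.4, 48.7 and 59.5 in WT Spg, a fold of 1.09 (0.84 to 1.4). Its partner Sohlh2 read 83.3, 76.6 and 97.7 CPM in KO and 98.8, 81.6 and 89.0 in WT, a fold of 0.93 (0.74 to 1.17). KO and WT libraries overlapped for both genes, though Sohlh1 was higher in KO in 3 of 3 same-numbered pairs (ratios of 1.05 to 1.18). Dmrt1 was at 373, 450 and 526 CPM in KO and 387, 328 and 501 in WT, and its fold was 1.09 (0.81 to 1.46). The related Dmrtb1 was at 98.6, 217 and 244 CPM in KO and 113, 179 and 245 in WT (fold 1.02, 0.57 to 1.84). Replicate 1 was the lowest for Dmrtb1 in both genotypes. Uchl1 stood at 463, 321 and 475 CPM in KO Spg and at 431, 279 and 348 in WT Spg (fold 1.16, 0.84 to 1.61), and was higher in KO in 3 of 3 pairs (ratios of 1.07 to 1.36).

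The 3 remaining genes had the widest intervals of their Spg fold changes, in the fit without the replicate block. Neurog3 had 5.0, 1.5 and 3.0 CPM in KO (85 to 292 counts) and 3.68, 1.89 and 1.80 in WT, a fold of 1.25 with an interval from 0.57 to 2.76. Upp1 had 7.45, 1.18 and 3.14 CPM in KO and 4.10, 2.51 and 2.13 in WT, and its interval, 0.49 to 3.48, was the widest. Ccnd2 had 139, 29.7 and 72.0 CPM in KO and 116, 50.4 and 60.3 in WT (fold 1.03, 0.45 to 2.38). Replicate 1 was the highest of its group for each of these genes, in KO and in WT. The summed level of the 9 Sertoli cell markers was also highest in replicate 1, at 1718 CPM against 649 and 505 in KO Spg, and at 1305 against 666 and 352 in WT Spg. Its part in the scatter was not tested. The 8 pachytene markers summed to 200 to 221 CPM in KO Spg and to 349 to 1835 in WT Spg, and 0 of them was called, though the unadjusted edgeR p was under 0.05 for 5 of the 8 (Ldhc, Piwil1, Clgn, Hspa2 and Pgk2), all with lower values in KO. The 8 early meiotic markers summed to 798 to 1277 CPM in KO Spg and to 1273 to 1599 in WT Spg, with 0 called as well and an unadjusted edgeR p under 0.05 for Sycp1, Sycp2 and Spo11. Of all 21580 features, 1566 had an unadjusted edgeR p under 0.05.

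The second comparison asked the same in spermatocytes. Of the 9 genes, 5 were called: Kit, Dmrt1, Uchl1 and Ccnd2 were higher in KO Spc than in WT Spc, and Dmrtb1 was lower. At an adjusted p under 0.05, and with DESeq2, 8 of the 9 were called, beside 71.4% and 67.5% of all features. Leaving out 1 library gave 2 to 8 of the 9, beside 10892 to 14396 features. At the threshold of 0.01, 57.4% (13124) of 22848 features were called in edgeR, so the share of members called, 5 of 9, was near that of all features. Features called higher made up 27.4% of those tested and features called lower 30.1%, beside 4 and 1 of the 9 genes. The median log2 fold change was 2.73 over the 9 genes and 0.11 over all features, and the median of its absolute value 2.75 and 1.71. KO and WT libraries did not overlap in 7 of 9 genes, Sohlh2 and Upp1 being the exceptions, and in 66.4% of all features. The study states that KO germ cells arrest at the pachytene stage and that its WT Spc sort also holds a later stage. Genotype and the make-up of the sorted cells thus differ together in this comparison. In sorted bulk RNA, fewer cells that carry a transcript and less of it per cell cannot be told apart.

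Kit was at 81.2, 170, 206 and 77.3 CPM in KO Spc (replicates 1 to 4) and at 5.09, 17.2, 48.7 and 4.73 CPM in WT Spc. The lowest KO library lay above the highest WT library. Kit rose 7.29-fold (95% interval 2.36 to 22.5, edgeR adjusted p = 0.0054), and by 4.24-fold to 16.3-fold between libraries of the same number. Without KO replicate 2 or 3, or WT replicate 1, 2 or 4, its adjusted p passed 0.01, and it ran up to 0.0185 there. Dmrt1 was at 111, 319, 282 and 113 CPM in KO and at 7.75, 41.3, 70.1 and 7.65 in WT, again with no overlap. It rose 6.73-fold (2.19 to 20.7, edgeR adjusted p = 0.0067), a call lost when any of the same 5 libraries was left out (adjusted p up to 0.020). Uchl1, at 139, 367, 320 and 133 CPM in KO and 17.9, 65.3, 87.0 and 13.6 in WT, rose 5.38-fold (2.10 to 13.8, edgeR adjusted p = 0.0050). Its call was lost without KO replicate 2 or 3 or WT replicate 1 or 2 (adjusted p up to 0.016). In all 3 genes, replicates 1 and 4 were the low libraries of both genotypes.

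Sohlh1 was also low in replicates 1 and 4, at 16.9, 64.7, 41.8 and 16 CPM in KO Spc and 0.56, 8.74, 11.5 and 0.49 in WT Spc. Its groups did not overlap, but with a log2 fold change of 2.76 ± 0.97 (SE) and an edgeR adjusted p of 0.027 it was not called. WT replicates 1 and 4 held 18 and 14 counts of it. Sohlh2 was at 41.6, 69.8, 85.2 and 45.2 CPM in KO and at 7.59, 13.0, 48.2 and 8.52 in WT. WT replicate 3 lay above KO replicates 1 and 4, and the log2 fold change of 1.69 ± 0.57 was not called (edgeR adjusted p = 0.023). Neurog3 was at 1.05, 2.36, 2.46 and 1.12 CPM in KO (52 to 132 counts) and at 0.00, 0.36, 0.65 and 0.03 in WT (0 to 27 counts). These groups did not overlap either, at a log2 fold change of 2.73 ± 0.88 and an edgeR adjusted p of 0.018. Upp1 was at 0.79, 1.29, 1.30 and 0.90 CPM in KO and at 0.06, 0.24, 0.93 and 0.00 in WT, with 0 counts in WT replicate 4, and had an edgeR adjusted p of 0.087. Without WT replicate 3, Upp1, Neurog3 and Sohlh2 were all called, and 8 of the 9 genes in all, beside 60.5% (14396) of 23798 features.

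Dmrtb1 ran the other way. It was at 51.6, 191, 110 and 53.0 CPM in KO Spc and at 1785, 734, 525 and 1666 CPM in WT Spc, so that every WT library lay above every KO library. Dmrtb1 fell 11.6-fold (log2 fold change −3.54 ± 0.57, edgeR adjusted p = 0.00041), and its call held under every other scaling, filter, block and tool tried and without any 1 library (adjusted p up to 0.0048). In WT Spc, replicates 1 and 4, the lowest libraries for Kit, Dmrt1, Uchl1 and Sohlh1, were the highest for Dmrtb1. In KO Spc, the same replicates were the lowest for Dmrtb1 as for the other 4 genes.

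Ccnd2 rose 18.2-fold (6.25 to 53.2, edgeR adjusted p = 0.00048), the largest fold of the 9, from 2.72, 3.38, 10.7 and 2.5 CPM in WT Spc to 143, 31.4, 37.1 and 133 CPM in KO Spc. Its call held likewise under those settings (adjusted p up to 0.0041). In KO Spc, replicates 1 and 4 were its highest libraries, unlike for Kit, Dmrt1, Uchl1 and Sohlh1. The summed peritubular and Sertoli markers were highest in the same libraries. The 6 peritubular markers summed to 1882, 638, 209 and 1649 CPM in KO Spc (replicates 1 to 4) and to 19.2 to 28.8 in WT Spc. The 9 Sertoli markers summed to 1198, 435, 329 and 1122 CPM in KO Spc and to 146 to 536 in WT Spc. Their part in the level of Ccnd2, and of the other genes, was not tested. In replicates 2 and 3 alone, a split chosen after seeing the data, the log2 fold change of Ccnd2 was 2.31 ± 0.59 (edgeR adjusted p = 0.015, not called), against 5.73 in replicates 1 and 4 alone.

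**Figure D2:**
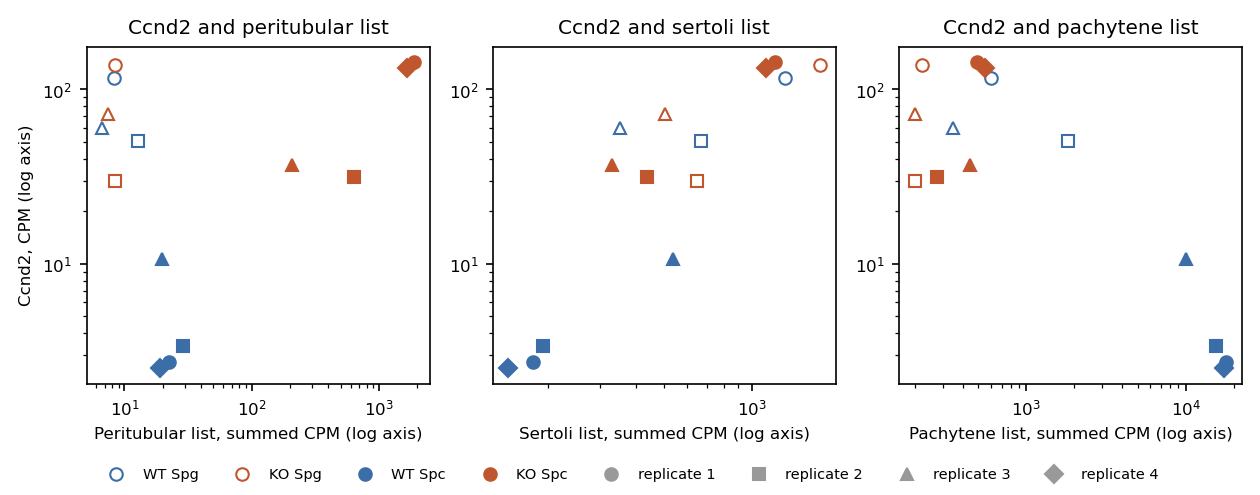
Level of Ccnd2 (CPM, log y axis) against the summed level of the peritubular, Sertoli and pachytene marker lists (CPM, log x axes) in each of the 14 libraries, with open symbols for Spg, filled for Spc, blue for WT and orange for KO, shaped by replicate number. KO Spc replicates 1 and 4, at 143 and 133 CPM of Ccnd2, have peritubular sums of 1882 and 1649 CPM, and KO Spg replicate 1, at 139 CPM of Ccnd2, has a peritubular sum of 8.48 and the highest Sertoli sum of the 14 libraries, 1718 CPM.

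Other somatic lists were counted in the same way. Of the tested markers, 6 of 6 Leydig cell, 6 of 6 macrophage, 4 of 6 peritubular, 2 of 9 Sertoli and 1 of 3 endothelial genes were called higher in KO Spc, and none of them lower. Leydig markers summed to 57.3 to 356 CPM in KO Spc and 14.1 to 30.4 in WT Spc, macrophage markers to 23.6 to 127 (highest in replicate 2) and 3.44 to 6.61, and endothelial markers to 15.1 to 138 and 4.73 to 6.39. Mast cells, which carry KIT, were represented by Fcer1a alone of 5 listed genes in both tables, at 0 counts in WT Spc and Spg and at most 16 counts in a KO library. Erythroid markers were called in 0 of 2 tested, and their sums overlapped (1.11 to 10.6 CPM in KO Spc and 1.48 to 7.43 in WT Spc). Among germ cell lists, 7 of 8 pachytene and 8 of 8 spermatid genes were called lower in KO Spc. The pachytene genes summed to 275 to 554 CPM in KO Spc and 10042 to 18005 in WT Spc, and the 7 spermatid genes found in both tables to 5.61 to 11.1 and 58.7 to 1215. The 8 early meiotic genes gave 3 called higher and 2 lower. Of all features, 27.4% were called higher and 30.1% lower in KO Spc. The part of these lists in the levels of the 9 genes was not tested.

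**Figure D3:**
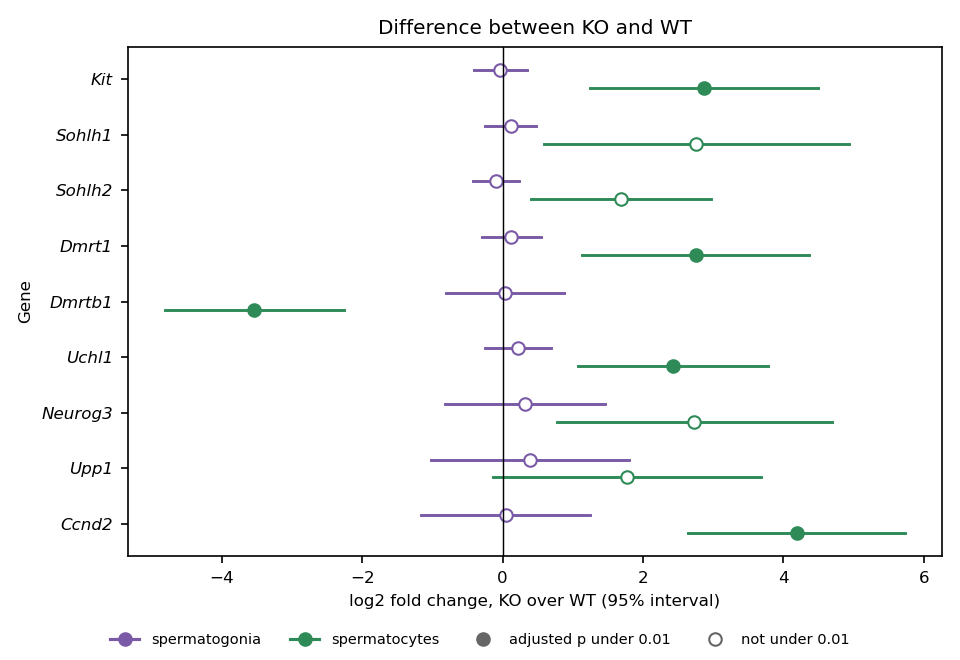
log2 fold change of KO over WT (x axis) for each of the 9 genes, in spermatogonia (purple) and spermatocytes (green), with 95% intervals and filled points at an edgeR adjusted p under 0.01. All 9 intervals of spermatogonia cross 0, and 5 of 9 genes pass in spermatocytes, with Dmrtb1 on the lower side.

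Spermatocyte replicates 1 and 4 were more alike than the other libraries. Their log2 levels differed by a root mean square of 0.22 in KO and 0.24 in WT, against 0.59 to 1.05 for the other pairs within these groups, yet by more than counting noise (chi-square of 11.7 and 15.5 per feature). With these replicates summed, 3 of the 9 genes remained called, Uchl1, Ccnd2 and Dmrtb1, beside 38.2% of all features. Each of the 9 genes kept its direction in replicates 2 and 3 alone, where 5 were called beside 23.2% of all features. The directions also held in replicates 1 and 4 alone, where 9 were called beside 83.4% of all features, over the spread of 2 alike libraries per group. The fold of Dmrtb1 was −2.03 ± 0.41 on the log2 scale in the former and −5.03 ± 0.12 in the latter.

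The third comparison took WT Spc against WT Spg, which differ in age and sort as well as in stage. All 9 genes were called, 8 of them lower in Spc and Dmrtb1 higher, beside 51.4% (13026) of 25318 features called, 22.5% lower and 28.9% higher. The 9 genes had a median log2 fold change of −3.17, and all features one of 0.06. No gene overlapped between the groups, beside 65.2% of all features without overlap. Kit fell 15.8-fold, from 299 ± 67.3 CPM (n = 3) to 18.9 ± 20.6 (n = 4), with an edgeR adjusted p of 0.00020. Ccnd2 fell 15.6-fold, from 75.7 ± 35.6 to 4.83 ± 3.94 CPM, and Dmrt1 12.8-fold, from 405 ± 88.1 to 31.7 ± 30.1 CPM (edgeR adjusted p = 0.00028 and 0.00034). Sohlh1 fell 10.2-fold (edgeR adjusted p = 0.0037) and Sohlh2 4.64-fold (0.0020), to 5.33 ± 5.67 and 19.3 ± 19.4 CPM.

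Uchl1 fell 7.67-fold to 46.0 ± 36.1 CPM (edgeR adjusted p = 0.00048). Neurog3 and Upp1 fell 9.01-fold and 8.96-fold, to 0.26 ± 0.30 and 0.31 ± 0.43 CPM (edgeR adjusted p = 0.0039 and 0.0055). Both calls were lost with the replicate block, with Spc replicates 1 and 4 summed and without WT Spg replicate 1. That of Neurog3 was also lost without WT Spc replicate 4, and that of Upp1 without WT Spc replicate 1 or 2 (edgeR adjusted p up to 0.012 and 0.017). Dmrtb1 rose 6.58-fold, from 179 ± 66.1 to 1177 ± 640 CPM (edgeR adjusted p = 0.00091). With library totals in place of the scaling factors, the median gene moved from 0.02 to −0.76 on the log2 scale in this comparison, and all features split into 34.4% higher among the called instead of 56.2%. The directions of the 9 genes stayed the same. In the KO against WT comparison of Spc, the same change moved the median gene from 0.11 to 0.79 and the share of higher among the called from 47.7% to 62.7%, and again the 9 directions held.

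The fourth comparison took KO Spc against KO Spg. Here 0 of 9 genes were called in edgeR, beside 2.99% (756) of 25318 features, of which 2.95% were called higher and 0.0355% lower. With DESeq2, 0 of the 9 were called as well. The unadjusted p of edgeR was under 0.05 for 1 of the 9, Upp1, and for 6209 of all 25318 features. Kit stood at 299 ± 22.8 CPM in KO Spg (n = 3) and 134 ± 64.5 in KO Spc (n = 4), a log2 fold change of −1.16 with a 95% interval of −2.5 to 0.18. Kit and Dmrt1 were the genes of the 9 whose libraries did not overlap between the KO stages, where 26.2% of all features did not. Dmrt1 stood at 450 ± 76.6 and 206 ± 110 CPM, a log2 fold change of −1.13 (−2.48 to 0.23). Upp1 had the lowest log2 fold change, −1.87 (−3.60 to −0.15), at an edgeR adjusted p of 0.17.

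The other 6 genes had intervals that held 0. The log2 fold change was −0.79 (−2.54 to 0.95) for Sohlh1, −0.51 (−1.60 to 0.58) for Sohlh2 and −0.88 (−1.98 to 0.22) for Dmrtb1. It was −0.81 (−1.98 to 0.36) for Uchl1, −0.85 (−2.46 to 0.75) for Neurog3 and 0.10 (−1.31 to 1.51) for Ccnd2. The sign of Ccnd2 depended on the libraries, and the value was −1.24 with Spc replicates 2 and 3 alone. In Spc replicates 1 and 4 alone, 6 of the 9 genes were called lower than in KO Spg: Kit, Sohlh1, Sohlh2, Dmrt1, Dmrtb1 and Uchl1. In that setting 19.7% (5055) of all features were called, over a spread that rests in part on these alike libraries. The stage comparisons share their Spg and Spc libraries with the KO against WT comparisons, so their values are set side by side and were not correlated.

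**Figure D4:**
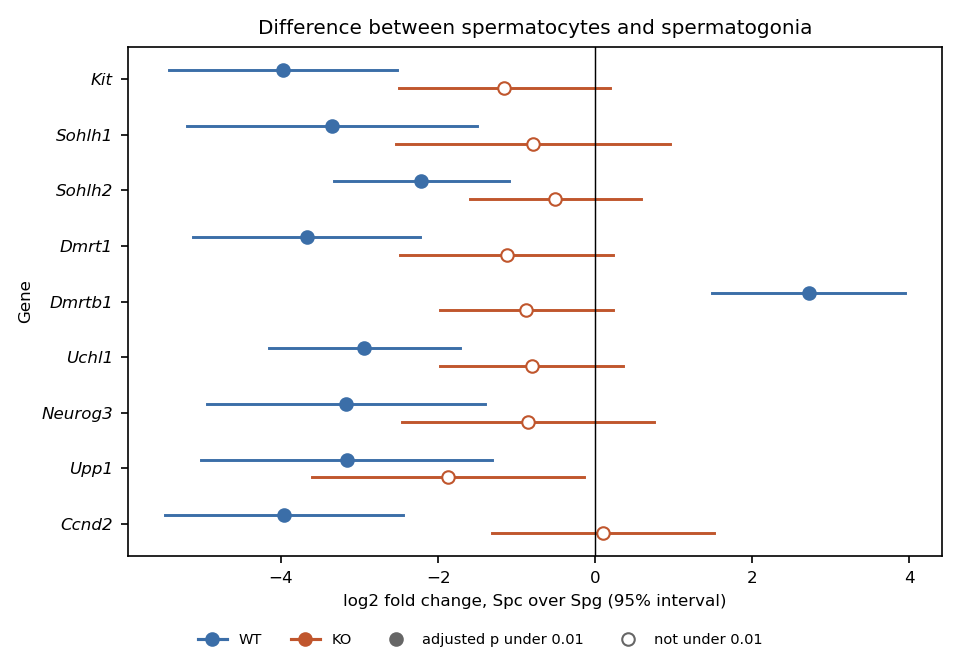
log2 fold change of Spc over Spg (x axis) for each of the 9 genes in WT and in KO, with 95% intervals and filled points at an edgeR adjusted p under 0.01. All 9 genes pass in WT, 8 on the lower side and Dmrtb1 on the higher, and 0 pass in KO.

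A change that passes in WT and not in KO does not show a difference, so the KO effect in Spc minus that in Spg was tested in 1 fit over the 14 libraries. Of the 9 genes 2 were called, Ccnd2 and Dmrtb1, beside 24.9% (6314) of 25318 features. The log2 difference was 4.06 ± 0.97 (SE) for Ccnd2, with an edgeR adjusted p of 0.0050, and −3.60 ± 0.76 for Dmrtb1, with one of 0.0024. Both calls were lost without WT Spg replicate 1, at an edgeR adjusted p of 0.013 for Ccnd2 and 0.010 for Dmrtb1. Then 0 of the 9 were called, beside 15.3% of all features. The call of Ccnd2 was also lost without KO Spg replicate 2 or 3 or WT Spc replicate 1 or 2, and with Spc replicates 1 and 4 summed. With Spc replicates 2 and 3 alone the differences were 2.34 for Ccnd2 and −1.98 for Dmrtb1, and neither was called, while Kit, Sohlh1, Dmrt1 and Uchl1 were, beside 8.35% of all features. The remaining differences were 2.82 ± 0.91 for Kit (edgeR adjusted p = 0.023), 2.55 ± 0.92 for Dmrt1 (0.036) and 2.13 ± 0.79 for Uchl1 (0.040). Those of Sohlh1 (2.55 ± 1.18), Sohlh2 (1.71 ± 0.73), Neurog3 (2.32 ± 1.12) and Upp1 (1.29 ± 1.17) had edgeR adjusted p values from 0.070 to 0.38. Without WT Spc replicate 3, 6 of the 9 were called, beside 36.4% (9090) of 24967 features. With the replicate block more of the 9 were called than in the main fit, beside 22.8% (5986) of 26258 features.

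The pathways of the 9 genes were read next, by counts of called genes and without a test of the list. These counts stand beside the 57.4% of all features called between KO and WT Spc (27.4% higher and 30.1% lower) and the 51.4% called between the WT stages (28.9% higher and 22.5% lower). Of 34 genes of KIT signalling, 16 were called higher and 6 lower in KO Spc than in WT Spc, with a median log2 fold change of 0.93. Pik3r1, a regulatory subunit of PI3-kinase, rose the most (4.88 ± 0.71, SE). Kitl, the ligand of KIT, rose by 3.99 ± 0.78 on the log2 scale (edgeR adjusted p = 0.0013). In WT Spc against WT Spg, 9 genes of this list were called higher and 14 lower. Of 18 tested genes of retinoic acid metabolism and meiotic entry, 11 were called higher in KO Spc and 1 lower. Cyp26b1, which breaks down retinoic acid, rose the most (6.24 ± 0.92), and Stra8, which retinoic acid induces at meiotic entry, rose by 3.05 ± 0.81 (edgeR adjusted p = 0.0069). Cyp26b1 stood at 559 ± 537 CPM (SD, n = 4) and Kitl at 78.7 ± 68.2 in KO Spc. The summed level of the retinoic acid list in KO Spc, 2385, 1050, 892 and 2098 CPM in replicates 1 to 4, was high in replicates 1 and 4, as were the peritubular and Sertoli sums. The part of somatic markers in the changes of this and the other pathway lists was not tested. Stra8 fell by 3.71 on the log2 scale from WT Spg to WT Spc, and 8 more genes of its list were called lower.

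Markers of undifferentiated spermatogonia gave 7 called higher and 1 lower of 17 tested in KO Spc. Nanos3 rose by 3.21 ± 0.63 and Zbtb16 by 2.83 ± 0.75, while Id4 was lower (log2 fold change −4.70 ± 0.28). Gfra1, a receptor for GDNF, was at −0.16 ± 0.48 and was not called. From WT Spg to WT Spc, 16 of 19 of these markers were called lower and Id4 higher (2.78 ± 0.43). Among 9 other genes of the DMRT family, Dmrtc1c1, whose near-identical copies make its count uncertain, rose in KO Spc and Dmrtc2 was called lower, at −2.42 ± 0.19. Dmrtc2 was called higher from WT Spg to WT Spc (2.13 ± 0.34), the directions that Dmrtb1 had in both comparisons. Of 9 partners or inhibitors of basic helix-loop-helix factors, 5 were called higher in KO Spc, led by Id3 (6.15 ± 0.81), and Tcfl5 was called lower (−3.59 ± 0.28).

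The G1 list of Ccnd2 gave 8 called higher and 2 lower of 18 in KO Spc. Ccnd1, a second D-type cyclin, rose by 2.86 ± 0.76 (edgeR adjusted p = 0.0070), and Ccnd3, the remaining one, was at 1.29 ± 0.46 and not called (0.027). Ccnd1 fell by 3.95 on the log2 scale from WT Spg to WT Spc. The lists of ubiquitin genes (1 higher and 3 lower of 8) and of pyrimidine salvage (3 and 3 of 9), set beside Uchl1 and Upp1, had medians of −0.97 and −0.40. In Spg, 0 genes of any list were called between KO and WT, beside 0.0741% of all features. In KO Spc against KO Spg, 2 genes each of the KIT, retinoic acid and early meiotic lists and 1 of the helix-loop-helix list were called higher, and none of these lists had a gene called lower. Macrophage (6 of 6), Leydig (3 of 6), peritubular (2 of 6) and endothelial (1 of 3) markers were called higher there. Of all features, 2.95% were called higher and 0.0355% lower between the KO stages.

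To find the genes most like each of the 9, the root mean square difference of centred log2 CPM over the 14 libraries was taken against 17628 features. The genes nearest to Kit were Radx (0.13), Esrp1 (0.14) and Nlrp4c (0.15), and those nearest to Dmrt1 were Rcor2 (0.15), Cbx2 (0.15) and Epb41l4b (0.15). Sohlh1 was nearest to Sox3 (0.19), Aifm3 (0.19) and Crabp1 (0.20), and Sohlh2 to Mcm8 (0.23), Shq1 (0.24) and Slc4a11 (0.24). Uchl1 was nearest to both entries of Gcat (0.19 each) and to Lmo1 (0.20). For these 5 genes the distances stayed at or below 0.24. Neurog3 was nearest to Rnd2 (0.19), Fam241b (0.20), which overlaps it on the other strand, and Chd7 (0.22). Upp1 was nearest to Chd7 (0.25), 2010300C02Rik (0.28) and Iqschfp (0.29). Dmrtb1, whose nearest were Hap1 (0.36), Htatip2 (0.38) and Tuba3a (0.39), and Ccnd2, with Clic6 (0.30), Septin11 (0.37) and Cnn3 (0.43), stood farther from any other gene. Among the 9, Kit and Dmrt1 were the nearest pair (0.23), followed by Sohlh1 and Dmrt1 (0.27). Dmrtb1 differed from the other 8 by 2.40 to 3.47. The points share libraries and group differences, so these values describe the pattern over the groups. Over the 7 WT libraries, 8 of the 9 genes kept fewer than 2 of their 3 nearest genes.

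DNMT3C acts on retrotransposons, so TE copies inside the 9 gene bodies were counted from the deposited tables of single copies. There were 350 copies, of which 66 in Spg and 51 in Spc had a mean of at least 0.5 TPM, the length-scaled abundance unit of the deposited tables, and 64 and 48 of these lay on the strand of the gene. Dmrt1 held 186 of the copies and Kit 83. Copies on the strand of a gene share its reads where they lie in its transcript. A single copy belonged to a young subfamily, in Dmrtb1, and it did not reach 0.5 TPM in either stage.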

How the data were processed

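Polyadenylated RNA of sorted cells (10 ng, 13 PCR cycles, stranded kit) was sequenced in 14 libraries, and an additional Spg replicate of each genotype was left out by the authors for RNA quality. The authors trimmed reads with cutadapt 4.0, aligned them to GRCm38 with STAR 2.7.3a, keeping up to 100 alignments per read, and counted genes (GENCODE M25) and TEs by strand with TEtranscripts and TElocal. The deposited tables hold raw counts of genes and TE subfamilies, and the deposited tables of single TE copies hold TPM as the authors normalised them, which were used only to describe copies in gene bodies. Spg and Spc counts came in separate tables. Gene positions and lengths come from GENCODE M21, in which 97.68% of the gene identifiers were found with their version.

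Counts were filtered (filterByExpr), scaled by trimmed mean of M-values (TMM) over genes and TE subfamilies and tested with edgeR 4.0.16 (quasi-likelihood) in R 4.3.3, with Benjamini-Hochberg adjustment over all features and calls at an adjusted p under 0.01. KO and WT were compared in 1 fit per stage, and stages and the difference of KO effects in 1 fit over the 14 libraries. Printed CPM use TMM over the 14 libraries, so ratios of CPM differ slightly from fitted folds. Standard errors are the fold change over the square root of F. DESeq2 1.42.0, other scalings, filters and thresholds, the replicate block and leaving out each library were the alternatives. In Spg, deviations from the group means correlated between libraries of the same number (r = 0.73, 0.17 and 0.28). However, 1 pair of different numbers (2 and 3) reached r = 0.31, so a pairing of KO and WT is uncertain. The printed folds, intervals and p-values come from fits without the replicate block, unless another setting is named. The fits were also run on simulated counts, drawn as independent libraries with the same dispersion for all features. That setting differs from these data, where Spc replicates 1 and 4 are alike, so it does not measure how sure the calls are here. The 9 genes were all named, with set relatives and the 3 nearest genes of each of the 9. Called genes of largest rise or fall were named for the KIT, retinoic acid, undifferentiated, DMRT and helix-loop-helix lists. They were not named for the G1, ubiquitin and pyrimidine lists. Replicate numbers follow the sample titles (Spg replicate 3 is numbered 4 in the count table). The 9 genes and all lists were chosen with earlier results of these data known. Depth limits Neurog3 and Upp1 most, with 0 to 39 counts in WT Spc.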

Additional observations from a re-analysis of the deposited data

Results flagged for a closer look

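In WT Spc, replicate 3 stood apart from the other 3 libraries for Sohlh2, at 48.2 CPM against 7.59 to 13.0, and for Ccnd2, at 10.7 CPM against 2.5 to 3.38. The gap to the nearest library was 0.868 and 0.894 of the range of the group, above the critical value of Dixon's test for 4 libraries. Of 18 groups tested, 2 passed, and chance passes about 1 in 20. The KO effect differed between Spc and Spg for Dmrtb1, by −3.60 on the log2 scale (edgeR adjusted p = 0.0024, with KO below WT in all 4 same-numbered Spc pairs), and for Ccnd2, by 4.06 (0.0050, with KO above WT in all 4).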

How the results depend on the processing

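Counts of calls are given as changed from those of the report. At an adjusted p under 0.05, 68 features were called between KO and WT in Spg and 2108 between the KO stages. In Spc, 8 of the 9 genes were called at that threshold, beside 71.4% of all features. In the difference of KO effects, 5 of the 9 genes and 11350 features were called. With DESeq2, 538 features were called in Spg, 2414 between the KO stages and 9995 in the difference. In Spc, DESeq2 called 8 of the 9 genes, beside 67.5% of all features. Without the filter, 157 features were called in Spg. With the replicate block, 177 features were called in Spg, where the log2 fold change of Ccnd2 turned to −0.10, and 380 between the KO stages. In Spc, the block gave 8 of the 9 genes beside 47.5% of all features. In the difference, it gave 7 of the 9 genes beside 22.8%. The replicate numbers are those of the sample titles, and the Spg libraries titled replicate 3 are numbered 4 in the count table in both genotypes. A block across stages thus joins these Spg libraries to Spc replicate 3 by title alone. Between same-numbered libraries, r was 0.73, 0.17 and 0.28 in Spg and 0.0751, 0.229, −0.0363 and 0.134 in Spc. It was by far the largest for Spg replicate 1, and the block is given only as an alternative.

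With Spc replicates 1 and 4 summed, 3 of the 9 genes and 8874 features were called in Spc. Between the KO stages 349 features were called, and in the difference 1 gene and 3543 features. With Spc replicates 2 and 3 alone, a choice made after seeing the data, 5503 features were called in Spc, 137 between the KO stages, and 4 genes and 2112 features in the difference. With replicates 1 and 4 alone, likewise, the counts were 9 genes and 20243 features in Spc, 6 genes and 5055 features between the KO stages, and 8 genes and 10679 features in the difference. Between the KO stages, the log2 fold change of Ccnd2 turned to −0.042 with library totals, −0.21 with replicates 1 and 4 summed and −1.24 with replicates 2 and 3 alone. The cause of these changes was not tested, beyond the fewer libraries used.

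Leaving out 1 library at a time gave 4 to 24 features called in Spg and 112 to 1014 between the KO stages. In Spc it gave 2 to 8 of the 9 genes and 10892 to 14396 features. In the difference it gave 0 to 6 genes and 3823 to 9090 features. The 2 genes in Spc were those without KO replicate 2 or 3 or WT replicate 1 or 2, and without WT replicate 4 there were 3. In Spg, where 0 genes were called throughout, the log2 fold change ran from −0.17 to 0.094 for Kit, −0.0022 to 0.23 for Sohlh1, −0.0065 to 0.28 for Dmrt1, −0.22 to 0.35 for Dmrtb1, −0.15 to 0.73 for Neurog3, −0.45 to 0.82 for Upp1 and −0.59 to 0.49 for Ccnd2. Between the KO stages that of Ccnd2 ran from −0.35 to 0.69. Upp1 did not pass the filter of a mean count of 50 in Spc and has no value there. In all other settings tried, the 9 genes kept their direction in WT Spc against WT Spg and in KO Spc against WT Spc.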
